A study of Mus musculus with 6 samples.

Results

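The genes described are 10 immediate early genes, Fos, Fosb, Jun, Junb, Jund, Egr1, Btg2, Atf3, Ier2 and Dusp1, in single microglia-like cells taken from mouse brains that carried a human glioma. They were chosen by their gene symbols, 10 of the 31053 genes of 1 joint table of UMI counts (unique molecular identifiers, each counting 1 captured RNA molecule), and each symbol matched 1 row. The table held 40411 cell barcodes, of which 38751 were kept after cell filters and 36930 were called microglia-like from marker genes. The cells were gated without these 10 genes.

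The cells were CD45+ cells, sorted after a Percoll gradient from the right, tumor-bearing hemisphere of female SCID mice, which lack T and B lymphocytes and were 8 weeks old when implanted (6-8 weeks in the labels). The mice carried intracranial tumors of U87, an established human glioma line, that expressed IL-33 (group IL33, 3 mice, brains taken 3 weeks after implantation) or held the empty pcDNA 3.1 vector (group pcDNA, 3 mice, taken at 6 weeks). Libraries were made with the 10x Chromium 3′ chemistry and joined by the authors into 1 table, in which a number from 1 to 6 at the end of each barcode marks the library. The sample labels do not tie these suffixes to a mouse, and no suffix was matched to a mouse by its number of cells, so the table was treated as 1 pooled sample, IL33 and pcDNA cells were not compared here, and no test was run. Time after implantation also differed between the groups.

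Immediate early genes are transcribed within minutes of a stimulus without new protein synthesis, from promoters kept ready for factors such as SRF and CREB. Fos and Jun family proteins pair through leucine zippers to form AP-1, a transcription factor that binds DNA near many inducible genes, while genes such as Dusp1 and Btg2 are induced in the same wave and restrain signaling or growth. In microglia, the resident macrophages of the brain, these genes are known to respond to injury, to inflammatory signals and to the handling of tissue during cell isolation. All cells here went through dissociation and sorting, so levels in the brain and levels set by handling cannot be told apart.

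Totals ran from 9745192 to 24393841 UMIs per suffix, with median UMIs per barcode between 1536 and 3503. Microglia-like cells held 13459 CPM (UMIs of a gene per 1000000 UMIs) of 6 microglial markers summed (Tmem119, P2ry12, Cx3cr1, Selplg, Gpr34 and Olfml3), 323 CPM of Ptprc, which encodes CD45, and 18.5 CPM of 5 T and B lymphocyte markers summed. The libraries shared barcodes. Of the 40411 barcodes, 14722 (36.4%) had a sequence that stood under more than 1 suffix, with a share of 20.7% to 51.0% per suffix, and 490 sequences stood under all 6. For those 490, the UMIs were split over suffixes 1 to 6 in nearly constant proportions, with medians of 19.2%, 25.4%, 7.36%, 14.3%, 20.98% and 12.8%. Between any 2 suffixes, the profile most like that of such a barcode, over 2000 genes without the 10 members, was the same sequence in 98.0% to 100% of cases. This match was not made for sequences found under 2 to 5 suffixes. Shared barcodes were 37.1% of the microglia-like cells and were shallower than the rest, with a median of 939 against 3118 UMIs. Most results are therefore given with all cells and again for the 23243 microglia-like cells without a shared barcode (called unshared here). Some are given with all cells only. Intervals given are exact 95% intervals for counting error only and do not cover the spread between mice.

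On the mouse genome (build GRCm38, GENCODE M21 annotation) Fos lies on chromosome 12 at 85473890-85477273 on the plus strand and Fosb on chromosome 7 at 19302696-19310051 on the minus strand. Jun, a gene of 1 exon, lies on chromosome 4 at 95049034-95052222 on the minus strand, Junb on chromosome 8 at 84974484-84978718 on the minus strand and Jund on the same chromosome at 70698949-70700616 on the plus strand. Btg2 is on chromosome 1 at 134075170-134079120 and Atf3 on the same chromosome at 191170296-191218039, both on the minus strand. Ier2 is on chromosome 8 at 84661331-84662852 and Dusp1 on chromosome 17 at 26505590-26562128, both on the minus strand. The counts are of reads in exons on the gene's own strand, and come from the 3′ end, so the antisense partners annotated at Jun (Junos) and Jund (Gm11175) are counted apart, while a pseudogene annotated within the span and on the strand of Dusp1 (AC122252.4) is not set apart by strand.

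The promoters of these genes are the sequences through which a stimulus reaches them, and 7 are shown because the members differ in them. The windows are the 250 bases before the start of the RefSeq transcript (build GRCm38.p6), written 5′ to 3′ on the gene's strand. Capitals mark the cyclic AMP response element (CRE) TGACGTCA and its shorter form TGACGT, which CREB family proteins bind; the AP-1 site TGANTCA and the CArG box, which SRF binds, were searched too, each on both strands, and would also be in capitals. Every TGACGTCA also holds TGACGT on each strand. The windows are chr12:85473640-85473889 (plus strand) for Fos, chr7:19310046-19310295 (minus) for Fosb, chr4:95052223-95052472 (minus) for Jun, chr8:84978749-84978998 (minus) for Junb, chr1:134079156-134079405 (minus) for Btg2, chr1:191183334-191183583 (minus) for Atf3 and chr17:26508473-26508722 (minus) for Dusp1.
Fos: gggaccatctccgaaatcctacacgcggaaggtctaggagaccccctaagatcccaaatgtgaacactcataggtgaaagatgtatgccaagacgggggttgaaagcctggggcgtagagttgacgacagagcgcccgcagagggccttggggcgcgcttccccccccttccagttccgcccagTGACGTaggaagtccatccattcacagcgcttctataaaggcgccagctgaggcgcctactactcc
Fosb: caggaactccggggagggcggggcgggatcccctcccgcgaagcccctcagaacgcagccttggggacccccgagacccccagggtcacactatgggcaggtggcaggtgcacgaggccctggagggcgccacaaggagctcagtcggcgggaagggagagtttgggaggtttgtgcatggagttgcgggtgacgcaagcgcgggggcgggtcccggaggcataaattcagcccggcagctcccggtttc
Jun: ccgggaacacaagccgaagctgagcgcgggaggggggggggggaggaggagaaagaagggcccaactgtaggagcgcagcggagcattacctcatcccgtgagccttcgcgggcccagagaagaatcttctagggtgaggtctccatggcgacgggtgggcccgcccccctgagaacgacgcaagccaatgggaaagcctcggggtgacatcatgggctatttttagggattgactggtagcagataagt
Junb: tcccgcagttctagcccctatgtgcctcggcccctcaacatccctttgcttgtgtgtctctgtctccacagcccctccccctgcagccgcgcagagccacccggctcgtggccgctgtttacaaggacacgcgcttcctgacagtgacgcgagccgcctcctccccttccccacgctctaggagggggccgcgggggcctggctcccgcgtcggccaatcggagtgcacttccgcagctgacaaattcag
Btg2: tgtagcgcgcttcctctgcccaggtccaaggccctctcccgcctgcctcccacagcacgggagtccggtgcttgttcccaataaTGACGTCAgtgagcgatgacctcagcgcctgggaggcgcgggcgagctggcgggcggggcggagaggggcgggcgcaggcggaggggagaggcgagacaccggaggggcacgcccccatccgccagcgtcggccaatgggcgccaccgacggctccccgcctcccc
Atf3: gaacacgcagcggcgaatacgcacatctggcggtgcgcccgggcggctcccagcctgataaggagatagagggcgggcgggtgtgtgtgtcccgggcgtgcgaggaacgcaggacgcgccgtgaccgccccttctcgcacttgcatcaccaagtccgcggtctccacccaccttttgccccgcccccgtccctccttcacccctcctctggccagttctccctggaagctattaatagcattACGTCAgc
Dusp1: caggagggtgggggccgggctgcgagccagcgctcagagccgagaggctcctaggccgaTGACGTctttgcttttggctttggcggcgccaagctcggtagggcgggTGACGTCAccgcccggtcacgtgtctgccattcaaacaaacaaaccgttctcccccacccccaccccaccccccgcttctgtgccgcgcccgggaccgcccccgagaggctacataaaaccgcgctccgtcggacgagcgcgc

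TGACGT stood in 4 of these windows, those of Fos, Btg2, Atf3 and Dusp1, against 6.47% of 32851 mouse promoter windows of the same length. In Fos it ended 61 bases before the start and in Atf3, where it lies on the other strand and reads ACGTCA, it ended 3 bases before it. The full TGACGTCA stood in Btg2 and in Dusp1, against 1.55% of all windows. Dusp1 held a further TGACGT at 191 to 186 bases before its start. No letters of these 4 motifs were found in the windows of Fosb, Jun and Junb, nor in that of Jund, which is not printed. The RefSeq start lay 1210 bases from the outermost GENCODE start for Jund, 34706 bases for Atf3 and 53656 bases for Dusp1, and at most 35 bases for the others. The AP-1 site stood in none of the 8 windows that were matched (6.75% of all windows) and the CArG box in none (1.47%). Sites farther from the start, or written with other letters than these motifs, were not searched. A TATA box (TATAAA) was found in Fos, against 12.4% of all windows. A match of letters is a description of the window and says nothing of what was bound there.

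The first question is how much of a microglial cell's captured RNA these genes made up. The 10 members took 5.40% of all UMIs of microglia-like cells, and 5.64% in unshared cells. Jun and Fos were counted most, followed by Junb and Btg2, and Fosb least. A UMI counts a captured 3′ end and capture differs between genes, so this order is one of counts and not of transcripts per length. Figures per suffix below are CPM in all microglia-like cells, in the order of suffixes 1 to 6.

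Of the Fos family, Fos stood at 10929 CPM (10908-10951) over all microglia-like cells and at 10884 CPM in unshared cells. By suffix its level was 12092, 12346, 12081, 8960, 9361 and 9844 CPM. Suffix 2 was highest and suffix 4 lowest, and the highest was 1.38-fold above the lowest (1.43-fold in unshared cells). Fosb, a close relative that pairs with Jun proteins in the same way, was far lower at 423 CPM (418-427), or 376 CPM in unshared cells. Its suffix levels were 441, 485, 526, 333, 409 and 339 CPM, highest in suffix 3 and lowest in suffix 4, a fold of 1.58 (1.73 unshared).

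Of the Jun family, which can pair among themselves or with Fos proteins, Jun stood at 12647 CPM (12624-12670), and at 13609 CPM in unshared cells. By suffix it was 12620, 13999, 12750, 12330, 11360 and 11927 CPM, a fold of 1.23 (1.25 unshared). Suffix levels of Jun and Fos overlapped in range, although Jun was the higher of the pair in each suffix. Junb, which is known to restrain some actions of Jun, was at 9039 CPM (9019-9058), or 9722 CPM unshared. Its suffix levels of 9263, 9749, 9381, 8031, 8339 and 9014 CPM spanned 1.21-fold (1.28 unshared), highest in suffix 2 and lowest in suffix 4. Jund, the member of the family that many resting cells already express, was at 2272 CPM (2262-2282) and 2466 CPM unshared. It had the widest suffix spread of the 10 in all cells, at 2598, 2166, 3015, 1747, 2553 and 1859 CPM and a fold of 1.73 (1.69 unshared), highest in suffix 3 and lowest in suffix 4.

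Of the other transcription factors and early genes, Egr1, a zinc finger factor, was at 2361 CPM (2351-2371) and at 2471 CPM unshared. Its suffix levels were the closest of the 10, at 2242, 2487, 2427, 2557, 2153 and 2269 CPM, a fold of 1.19 (1.16 unshared). Atf3, a stress-induced factor of the ATF/CREB family that also pairs with Jun proteins, was at 2420 CPM (2410-2430) and 2609 CPM unshared. By suffix Atf3 was 2928, 2364, 2926, 2298, 2089 and 1997 CPM, a fold of 1.47 (1.58 unshared). The levels of Egr1, Atf3 and Jund overlapped over the suffixes, so their order is not set by these data. Ier2, a nuclear protein induced with Fos, was at 2964 CPM (2953-2975) and 3069 CPM unshared, and its suffix levels of 2587, 2759, 2991, 2744, 3436 and 3523 CPM were highest in suffixes 5 and 6, where Fos, Jun and Atf3 were not high.

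Of the feedback genes, Btg2, an antiproliferative protein that acts with the machinery of mRNA deadenylation, was at 7241 CPM (7223-7258) and 7640 CPM unshared. Suffix levels of 8118, 7747, 7974, 6182, 6107 and 6935 CPM were highest in suffix 1 and lowest in suffix 5, a fold of 1.33 (1.38 unshared). Dusp1, a phosphatase that turns off the MAP kinases, was at 3740 CPM (3728-3753), and it was 1 of 3 members with a lower level in unshared cells, 3506 CPM. By suffix Dusp1 was 4343, 4099, 4440, 2743, 3682 and 3028 CPM, a fold of 1.62 (1.75 unshared), highest in suffix 3 and lowest in suffix 4.

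The median fold between the highest and the lowest suffix was 1.37 for the 10 members and 1.21 for all 2694 genes of at least 50 CPM (1.44 and 1.23 in unshared cells). No member reached 2-fold, which 2.97% of all genes did in all cells and 3.45% in unshared cells. Other measures moved with the suffixes too. The ribosomal protein share was 3.82%, 3.97%, 4.53%, 5.22%, 5.64% and 5.02% in the order of the suffixes, and the summed level of the 10 heat shock genes was 5054, 5193, 4718, 4182, 3467 and 3843 CPM. Their part in the suffix levels of the members was not tested.

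**Figure D1:**
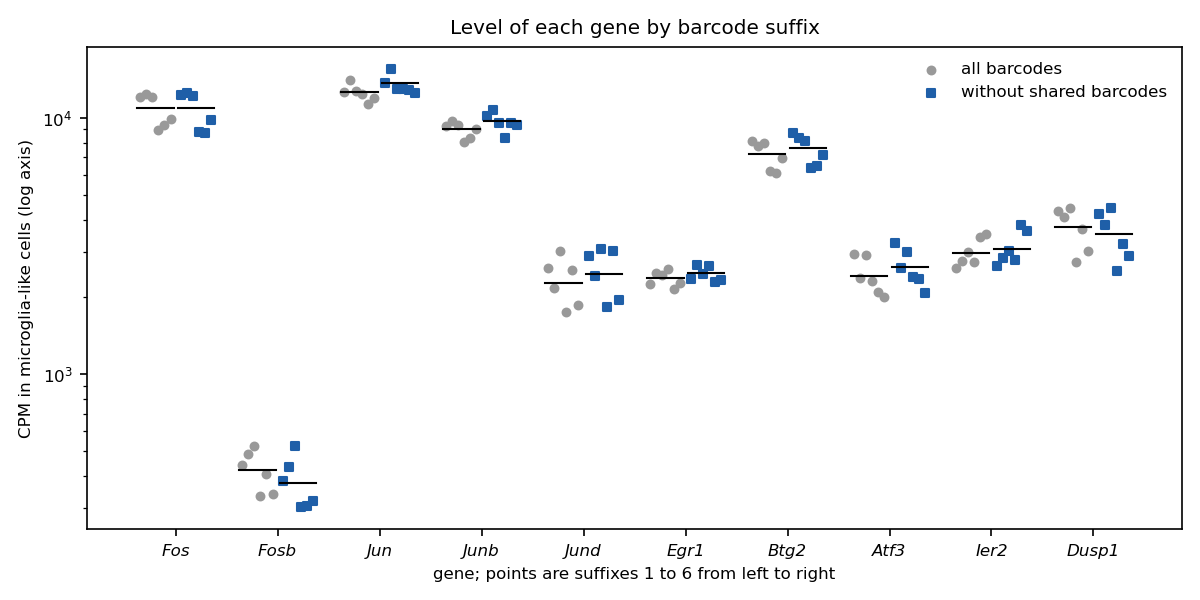
Level of each of the 10 genes in microglia-like cells (vertical axis, CPM, log scale) for suffixes 1 to 6 from left to right, as grey circles for all barcodes and blue squares without shared barcodes; black lines mark the level over all suffixes. Jund is spread most with all barcodes, from 1747 to 3015 CPM, and Egr1 least, from 2153 to 2557 CPM with all barcodes.

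In single cells the members were present nearly everywhere. Among 28604 microglia-like cells of at least 1000 UMIs, the 10 genes took a median of 5.43% of a cell's UMIs, with the 5th and 95th percentiles at 2.04% and 8.62% (5.79%, 2.62% and 8.81% unshared). Medians of unshared cells were 6.14%, 6.27%, 5.97%, 5.04%, 5.30% and 5.37% in suffixes 1 to 6. Cells in which the genes took less than 1% were few, 325 or 1.14%.

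With each cell thinned to 500 UMIs, so that depth is equal, Jun was detected in 96.1% of microglia-like cells, Fos in 93.0%, Junb in 92.7% and Btg2 in 90.1%. These are the same 4 genes that had the highest counts. Dusp1 was detected in 72.8% of thinned cells, Ier2 in 67.7%, Egr1 in 64.6%, Atf3 in 56.7% and Jund in 55.4%. Fosb was detected in 18.2% of thinned cells and in 39.9% of the same cells before thinning. In unshared cells thinned alike the shares were 98.4% for Jun, 92.8% for Fos, 67.7% for Dusp1 and 14.5% for Fosb. Free RNA gives UMIs in cells that do not express a gene, so the same shares are given in choroid plexus-like cells, an epithelium, which had a median of 1292 UMIs against 2455 in microglia-like cells. There, thinned alike, Jun was detected in 26.5% of cells, Fos in 24.8% and Fosb in 4.7%. Some of these 234 cells also passed the marker gate for microglia, and most of the UMIs lay in them. Of 1881 Jun UMIs 64, and of 1426 Fos UMIs 63, were in the 187 cells that failed that gate. The shares thus mix both kinds of barcode, and the part of free RNA in them was not tested.

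Thinned to 1000 UMIs, the median cell held 8 of the 10 members, and 9 of 10 in unshared cells. All 10 were detected in 3474 cells (12.1%) and none in 20. Cells with at most 3 of the members were 0.699% of the total, and 0.590% of unshared cells.

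The next question is whether the level of the members depended on how many UMIs a cell had, since a gene that takes a constant share of RNA has the same CPM at every depth. Cells were put in 4 bins, from 500 to under 1000, to under 2000, to under 4000, and 4000 or more UMIs. Of all microglia-like cells in the shallowest bin 91.6% had shared barcodes, against 64.8%, 7.28% and 4.78% in the others, so depth and sharing of barcodes ran together. A shared barcode is counted under several suffixes, so counts of suffixes with all barcodes are not independent repeats.

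Fos in all cells was 12935, 10125, 11811 and 9116 CPM from the shallowest to the deepest bin, a ratio of shallowest to deepest of 1.42, with the shallow bin higher in 5 of 6 suffixes. Without shared barcodes, at 10952, 10007, 11939 and 9091 CPM, the ratio was 1.20. Fosb was 799, 526, 415 and 307 CPM, a ratio of 2.60 that was above 1 in 6 of 6 suffixes. In unshared cells the same decline was smaller, 494, 412, 411 and 304 CPM, a ratio of 1.63. Dusp1 went the same way, at 5682, 4220, 3813 and 2960 CPM with a ratio of 1.92, higher in 6 of 6 suffixes. Unshared cells gave 4302, 3502, 3802 and 2949 CPM for Dusp1, a ratio of 1.46.

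The Jun family ran the other way in all cells, and Jun and Junb did not do so in unshared ones. Jun was 8782, 9713, 14188 and 11817 CPM over the bins, a ratio of 0.74. In unshared cells it was 14113, 14356, 14502 and 11853 CPM, a ratio of 1.19. Junb had a ratio of 0.67 in all cells and 1.11 in unshared cells, and Jund 0.56 and 0.93. The direction of Jun and Junb over depth thus turned when shared barcodes were left out. Atf3 was lower in shallow cells in both sets, with ratios of 0.58 and 0.78. Egr1 (0.85 and 0.93) and Btg2 (0.94 and 1.06) differed less between the bins. Ier2 had ratios of 0.92 and 1.24, and the unshared one was above 1 in 6 of 6 suffixes. Btg2 and Ier2 thus also crossed 1 when shared barcodes were left out.

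At a ratio of 1.5 or more, 2 of 10 members (Fosb and Dusp1) were higher in the shallowest bin of all cells, a bound that 9.91% of all genes passed, and 2 (Jund and Atf3) were lower at the same ratio, as were 10.1% of all genes. In unshared cells 1 member (Fosb) was higher, against 7.92% of genes, and none was lower, against 12.2%.

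**Figure D2:**
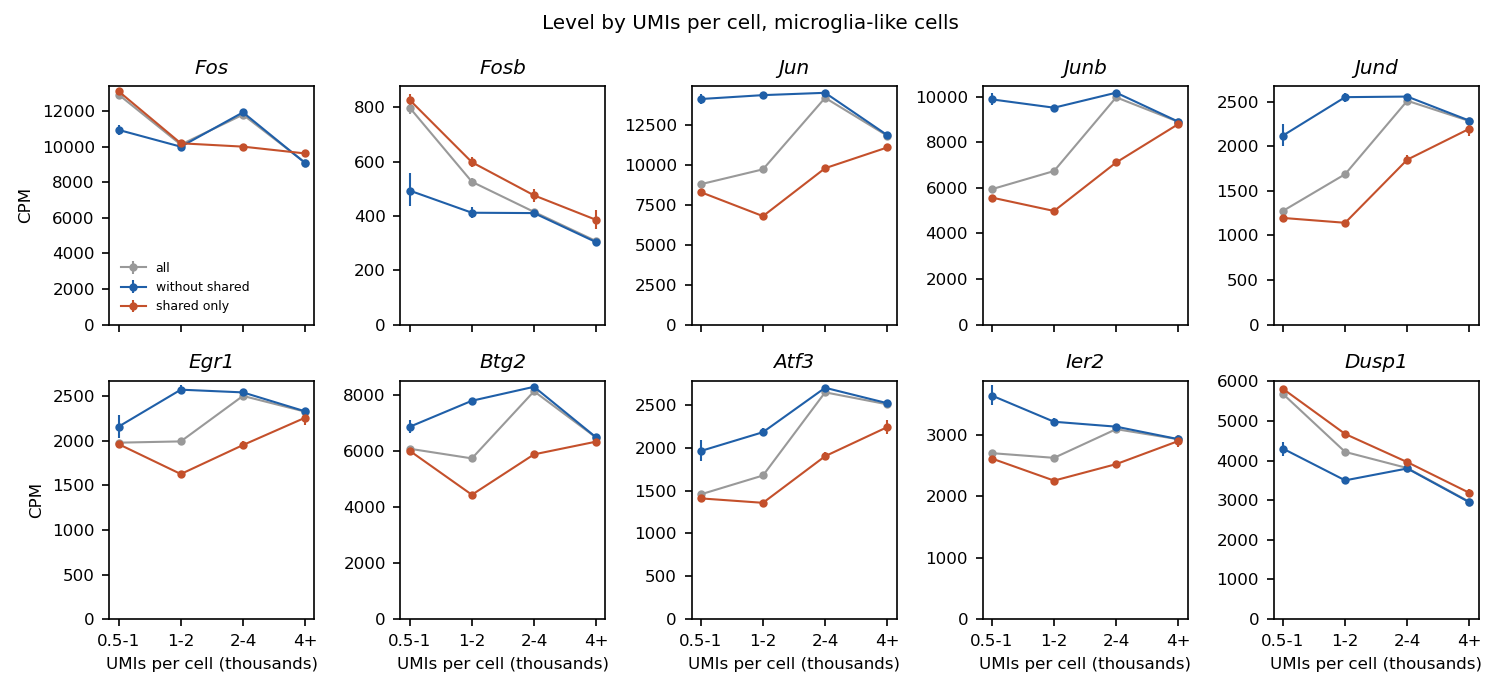
Level of each gene (vertical axis, CPM, from 0) in microglia-like cells by UMIs per cell (horizontal axis, in units of 1000), for all barcodes (grey), without shared barcodes (blue) and shared barcodes only (red); bars are exact 95% Poisson intervals. Fosb and Dusp1 are lower in the deepest than in the shallowest bin of each set. Jun, Junb, Jund and Atf3 are lower in shared than in unshared barcodes in every bin, but the intervals of Junb and Jund overlap in the deepest.

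Shared and unshared barcodes were then compared directly. Fosb was 638 CPM in shared and 376 CPM in unshared microglia-like cells, a ratio of 1.70, and Dusp1 was 4816 and 3506 CPM, a ratio of 1.37. Fos was nearly level, at 11139 and 10884 CPM. Jun was 8231 against 13609 CPM, a ratio of 0.60, and Junb (0.61), Jund (0.56) and Atf3 (0.59) were lower alike. Egr1 (0.75), Btg2 (0.71) and Ier2 (0.81) lay between. The partners that form AP-1 thus did not keep their proportion over all bins together. Fos was counted more often than Jun in shared barcodes and less often in unshared ones.

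By the 1.5-fold bound 1 member was higher in shared barcodes, which 5.94% of all genes were, and 4 were lower, against 8.5%. The split was also present among barcodes of like UMIs under 1 suffix in the shallower bins, and was smaller in the deeper ones. Within the bin of 500 to under 1000 UMIs the ratio was 1.68 for Fosb, 1.20 for Fos and 0.59 for Jun. In the next bin, to under 2000 UMIs, the ratio of Jun was 0.47, that of Junb 0.52 and that of Jund 0.45. Fosb, at 1.45, was under the bound there. At 2000 to under 4000 UMIs Jun was 9783 CPM in shared and 14502 CPM in unshared barcodes. At 4000 or more UMIs, with 248 shared barcodes, Jun was 11082 and 11853 CPM and Junb 8804 and 8908 CPM. Jund was 2198 and 2289 CPM and Fosb 386 and 304 CPM in that bin. Fos, at 9628 CPM, was below Jun in those shared barcodes too. Summed over suffixes, sequences under 3 or more suffixes had a median of 3640 UMIs, so these bins do not match summed depth. Among shared sequences summed in this way, 706 held 4000 to under 6000 UMIs (median 4691). They had Jun at 6521, Junb at 4597, Jund at 1014, Fos at 10071 and Fosb at 576 CPM. Unshared cells of 4000 or more UMIs (median 4693) had 11853, 8908, 2289, 9091 and 304 CPM. The part of depth was not tested. Ddit4, a stress-response gene that inhibits mTOR, moved with sharing at 412 CPM in shared and 6.25 CPM in unshared cells, and Malat1, a nuclear RNA, at 42839 and 61067 CPM. Their part in the levels of the members was not tested.

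Of the genes of at least 50 CPM in a list of other immediate early and dissociation-linked genes, 3 of 30 were at least 1.5-fold higher in shared barcodes and 11 were lower, with a median ratio of 0.85. Among genes of the upstream pathway (kinases and factors such as SRF and CREB), 0 of 9 were higher and 1 was lower, with a median of 0.89. Heat shock genes gave 0 of 8 higher and 2 lower, with a median of 0.87, and inflammatory genes gave 0 of 7 higher and 4 lower, with a median of 0.47.

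Barcodes that the filters removed also differed. The 554 removed barcodes that passed the microglial gate but had 5% or more mitochondrial UMIs held Fos at 3528 CPM, Jun at 6138 CPM and Dusp1 at 1447 CPM, each less than in kept cells. Their 10 members together made up 24763 CPM. The 667 barcodes removed for more than 2500 detected genes held Fos at 8089 CPM and Jun at 11732 CPM, nearer to the kept cells.

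Whether the members were particular to microglia-like cells was looked at in the other cells that the sort had let through, gated by markers of their own. These were 208 NK cell-like, 117 granulocyte-like, 281 monocyte-like, 234 choroid plexus-like and 13 border macrophage-like barcodes. Many of them also held microglial RNA. The 6 microglial markers summed to 6186 CPM in NK cell-like, 7016 CPM in granulocyte-like, 1310 CPM in monocyte-like and 3960 CPM in choroid plexus-like cells, or 0.46, 0.52, 0.10 and 0.29 of the level in microglia-like cells. Ratios are therefore given for all cells of a gate and for those that fail the microglial gate, in which these markers were at 1057, 857, 391 and 148 CPM. The second set was chosen after its values were seen, and the part of free RNA and of doublets in either set was not tested. The paper also describes bone-marrow-derived macrophages and reports microglial genes, at low levels, in a cluster of them. No gate set such macrophages apart here. Microglia-like cells may include them, so levels in microglia and in these macrophages were not compared.

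NK cell-like cells had lower levels of each member than microglia-like cells, with ratios from 0.32 to 0.76 and a median of 0.46 (0.43 in unshared cells), against a median of 0.99 over all genes. In the 100 NK cell-like cells that failed the microglial gate the median ratio was 0.07, and that over all genes 0.93. Of the members, Fos was at 0.03 of its microglial level there (345 CPM), Jun at 0.04 (465 CPM), Egr1 and Fosb at 0.05 and Atf3 at 0.03. The value of Fosb rests on 4 UMIs, and these cells had a median of 1618.5 UMIs. Junb, at 0.56 and 5096 CPM, was far less reduced, as were Ier2 at 0.40 (1183 CPM) and Jund at 0.31 (695 CPM). At least 1.5-fold lower levels were found for 8 of 10 members in all NK cell-like cells, where 23.8% of all genes were lower, and for 10 of 10 in those that failed the microglial gate, where 38.3% were. In unshared cells set against microglia-like cells weighted to the same suffixes and UMI bins, Jund was at 0.77 and not past the bound. No share of all genes is given for this weighting.

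Granulocyte-like cells gave a median ratio of 0.60 (0.62 unshared) in all cells and 0.14 in the 50 that failed the microglial gate, against medians over all genes of 0.81 and 0.44. In those 50 cells Junb (0.50), Ier2 (0.48) and Dusp1 (0.43) were the least reduced, and Jun (0.06) and Btg2 (0.08) the most. Fosb had 1 UMI there and is not ranked. These cells were shallow, with a median of 857 UMIs. Lower levels by the same bound held for 7 of 10 members in all cells (29.1% of all genes) and 10 of 10 in the cells that failed the gate (62% of genes). In unshared cells weighted as above, only Jun (0.61), Jund (0.53) and Btg2 (0.58) of the 7 stayed past the bound. Fos was then at 0.69, Fosb at 0.74, Atf3 at 0.67 and Dusp1 at 0.72.

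Monocyte-like cells carried little microglial RNA, and their ratios changed less between the sets, with a median of 0.20 (0.20 unshared) and 0.16. Junb (0.41 and 0.40) and Ier2 (0.39 and 0.38) were the highest again, followed by Atf3 (0.28 and 0.24) and Dusp1 (0.28 and 0.26), while Fos was at 0.20 and 0.17 and Btg2 at 0.12 and 0.07. All 10 members were lower by the bound in both sets, against 32.3% and 34.6% of all genes, and the median over all genes was 0.95 in each. In unshared cells weighted as above, the ratios ran from 0.15 (Btg2) to 0.43 (Junb), with Dusp1 also at 0.43.

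Choroid plexus-like cells had ratios that lay close together, from 0.22 to 0.31 with a median of 0.25 (0.26 unshared), near the 0.29 of the microglial markers. In the 187 that failed the microglial gate the ratios were 0.01 to 0.04, with a median of 0.02. Each of the 10 was lower by the bound in both sets, as were 59% and 63.8% of all genes. The median over all genes was 0.52 in all cells and 0.38 in those that failed the gate. The 13 border macrophage-like cells gave a median ratio of 0.68, against 0.90 over all genes. By the bound 4 of 10 members were lower there, as were 867 of 2694 genes, and these cells are too few for more.

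**Figure D3:**
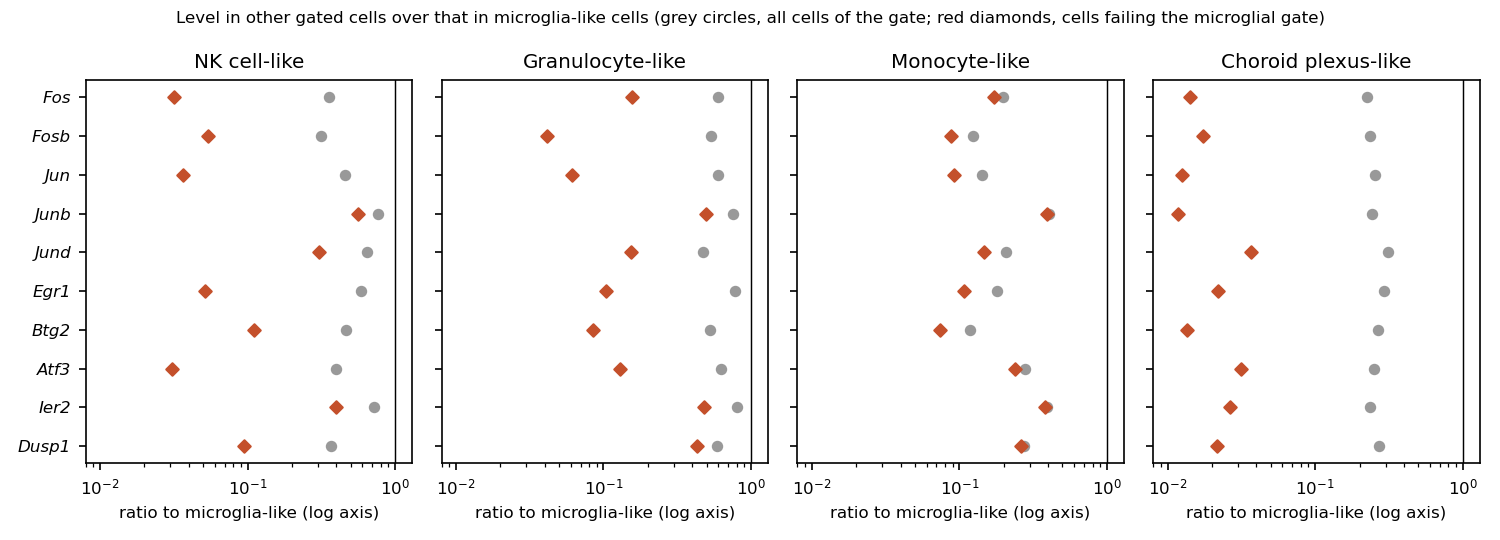
Level of each gene in 4 groups of non-microglial cells as a ratio to microglia-like cells (horizontal axis, log scale; the line marks 1), for all cells of a gate (grey circles) and for those that fail the microglial gate (red diamonds). Among cells that fail the microglial gate, Junb and Ier2 have the highest ratios in the NK cell-like, granulocyte-like and monocyte-like groups, while the 10 genes lie close together in choroid plexus-like cells.

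The members were then compared cell by cell, to see whether a cell rich in one was rich in the others. Cells of at least 1000 UMIs were thinned to 1000, and for each member the cells in the top and bottom 20% of their suffix for the summed UMIs of the other 9 were compared. All 10 members were higher in the cells high for the rest, in 6 of 6 suffixes and with and without shared barcodes. The share of other genes higher in this weaker sense is not given. The unshared values stand beside each ratio, since a shared barcode is counted under several suffixes.

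Fosb had the largest ratio, 3.94 with all barcodes and 5.91 unshared, where it was 824 CPM in high and 139 CPM in low cells. Over suffixes the unshared ratio ran from 3.38 to 9.94. Jund had ratios of 3.58 and 2.48, Fos of 2.28 and 2.20 and Dusp1 of 2.06 and 2.68. Fos stood at 14996 CPM in unshared high cells and at 6830 CPM in low ones. Btg2 (2.32 and 1.71), Junb (2.15 and 1.66) and Jun (2.14 and 1.64) gave lower ratios without shared barcodes. Egr1 (1.69 and 1.36), Atf3 (1.74 and 1.35) and Ier2 (1.59 and 1.48) differed least between high and low cells.

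At 1.5-fold in every suffix and over all, 5 of 10 members were higher with all barcodes (Fos, Fosb, Jund, Btg2 and Dusp1), and 4 in unshared cells (the same without Btg2). Of all other genes, 0.89% were higher by this bound and 2.19% lower with all barcodes, and 0.412% and 1.35% in unshared cells. Those genes were split by the sum of all 10 members, a close but not identical split. The count with all barcodes rested on suffix 3, without which it was 8.

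Correlations between pairs over cells were low to moderate. The highest median over suffixes in unshared cells was 0.41 for Fos with Dusp1, followed by 0.34 for Fos with Fosb, 0.34 for Fosb with Dusp1 and 0.29 for Jun with Junb. The median over the 45 pairs was 0.11 in unshared cells and 0.13 in all, and 44 of 45 were above 0. Pairs of other genes were not correlated for comparison. These cells shared a fixed depth of 1000 UMIs and, with all barcodes, some cells stood under several suffixes.

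**Figure D4:**
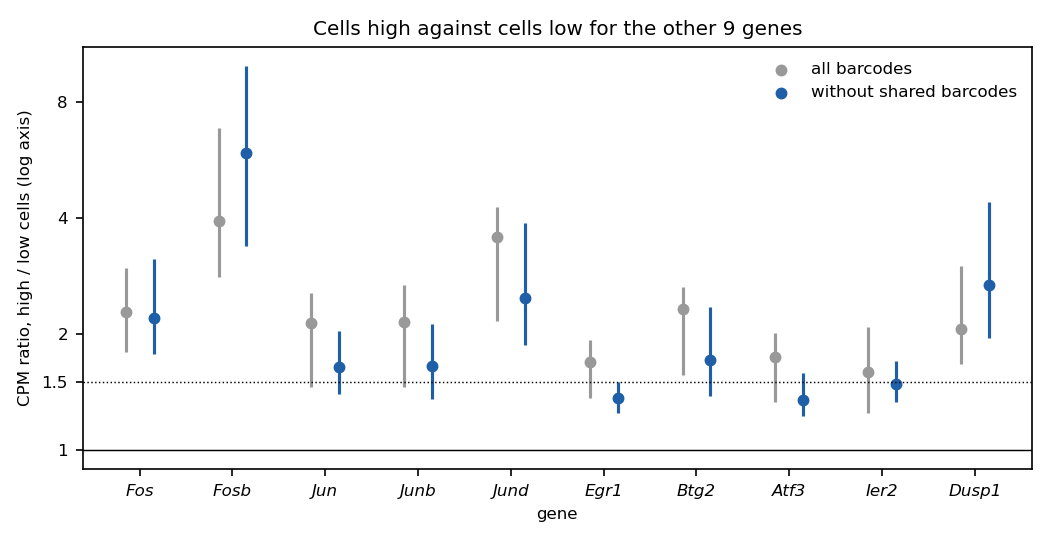
Ratio of the level of each gene in cells high for the other 9 genes to that in cells low for them (vertical axis, log scale), for all barcodes (grey) and without shared barcodes (blue); bars span the 6 suffixes, the dotted line marks 1.5 and the solid line 1. All ratios are above 1, and that of Fosb is the largest at 3.94 and 5.91.

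The genes outside the 10 with the highest ratio between cells high and low for the members were, with all barcodes, Dnajb1 (3.74), Hspa1a (3.10), Txnip (2.93), Tmx4 (2.84), Sox4 (2.66), Dnajb4 (2.39), Hexim1 (2.34), Hist4h4 (2.30), Trim47 (2.26) and 5031425E22Rik (2.25). Dnajb1 and Hspa1a encode heat shock chaperones of the HSP40 and HSP70 families. Without shared barcodes they were Klf4 (2.83), Tmx4 (2.59), Txnip (2.45), Tsc22d3 (2.39), Dusp6 (2.34), Hspa1a (2.20), Dnajb1 (2.19), Sox4 (2.10), Klf6 (1.93) and Egr2 (1.93). Klf4, Klf6 and Egr2 are themselves early response factors, Dusp6 is a phosphatase of the ERK kinases, and Tsc22d3 is a known target of glucocorticoids.

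In the list of other immediate early and dissociation-linked genes, 4 of 30 were higher by the bound with all barcodes (Socs3, Rhob, Nfkbiz and Egr2) and none lower, with a median ratio of 1.32. In unshared cells 3 of 30 were higher (Klf4, Klf6 and Dusp6) and 1 lower (Pim1), with a median of 1.31. In the heat shock list 2 of 8 were higher in both sets, Dnajb1 and Hspa1a. None of 9 genes of the upstream pathway moved by the bound, with a median ratio of 1.16 with all barcodes. Inflammatory genes had a median of 0.62 with all barcodes, none of 7 past the bound, and of 0.46 in unshared cells, where Ccl2 (0.32) and Ccl3 (0.46), which encode chemokines, were lower.

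Over sums of cells by suffix and UMI bin, the genes most like the summed members with all barcodes were Ddx5 (Pearson correlation 0.92 of log2 levels over 24 sums), Taf7 (0.88), Mat2a (0.88), Srsf7 (0.87), Tuba1a (0.86), P2ry12 (0.86), Gm3448, Srsf5, Dnajb9 and Hnrnpu (0.85). In unshared cells, over 23 sums, they included Txnip (0.84), Scoc (0.79), Glul (0.79), Tuba1a (0.77), Supt20, Dnajb4, P2ry12 (0.75), Gpr34 and Ssbp2 (0.74). Tuba1a and P2ry12, a receptor for nucleotides that marks microglia, were in both. Of the members themselves, with all barcodes, Btg2 (0.98), Jun (0.86) and Junb (0.82) were most like the summed members. Ier2 (0.34), Dusp1 (0.15) and Fosb (0.05) were least, with Egr1, Jund, Atf3 (0.73) and Fos (0.59) between. In unshared cells Fos (0.91), Btg2 (0.90), Junb, Dusp1 (0.85), Jun (0.80) and Fosb (0.77) were close. Jund (0.52), Atf3 (0.36), Egr1 (0.18) and Ier2 (-0.08) were less so. Likeness to the summed members is thus not likeness to each member. The sums of cells share libraries and depth, so these values only describe likeness.

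Microglial states were gated by genes outside the 10 and set against other microglia-like cells weighted to the same suffixes and UMI bins. The states were Apoe-high, Ccl2 and Ccl12 high, Spp1 or Lpl positive, MHC class II high, interferon response, cycling, and Ddit4 positive. Spp1, encoding osteopontin, and Lpl, a lipase, mark microglia that have left the resting state. The paper also reports high Spp1 in some bone-marrow-derived macrophages.

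In the 697 unshared cells that were Spp1 or Lpl positive, Fos stood at 5429 CPM against 8913 CPM in matched cells, a ratio of 0.61, and was lower in 5 of 5 suffixes that held 20 or more such cells. Fosb had a ratio of 0.40, Jund 0.55, Dusp1 0.60, Btg2 0.62, Junb 0.65 and Jun 0.68. Egr1 (0.87), Atf3 (0.88) and Ier2 (0.85) differed less. With all 2284 cells of the state the ratios were close, at 0.58 for Fos, 0.50 for Fosb, 0.58 for Jun and 0.52 for Jund. At least 1.5-fold lower levels held for 6 of 10 members, against 4.75% of all genes with all barcodes and 6 of 10 against 4.58% without shared ones, of which 5 were in both (Fos, Fosb, Junb, Jund and Btg2), with Jun only in the former and Dusp1 only in the latter.

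Cycling cells, 199 in all and 148 unshared, also had 6 of 10 members lower in both sets, where 12.2% and 13.2% of all genes were. In unshared cells the ratio was 0.58 for Fos, 0.38 for Fosb, 0.39 for Jund, 0.53 for Junb, 0.58 for Atf3 and 0.57 for Dusp1, and 0.76 for Jun. Egr1 went the other way, at 3223 CPM against 2384 CPM in matched cells, a ratio of 1.35 that was above 1 in 4 of 4 suffixes (1.33 with all barcodes). Egr1 is known as a growth factor-induced gene.

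The other states differed less. In Apoe-high cells (15913, of which 5337 unshared), Fos was 0.80 of its matched level in unshared cells and Atf3 1.03, and no member was past the bound, against 1.52% and 0.863% of all genes. In Ccl2 and Ccl12 high cells Fos was at 0.91 and Fosb at 0.70, no member was past the bound, and 0.111% and 0.0375% of genes were. MHC class II high cells (439, of which 305 unshared) had 1 member lower in each set, against 2.78% and 2.97% of genes, with Fosb at 0.67 in unshared cells. In interferon response cells no member was past the bound, against 3.6% and 5.59% of genes, and Fos was at 0.85. Of 4132 Ddit4 positive cells, 97.9% had shared barcodes. No member was lower by the bound there, against 3.12% of genes with all barcodes and 10.1% in the 87 unshared ones. Fosb was at 1.29 of its matched level with all barcodes and 1.32 without shared ones.

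**Figure D5:**
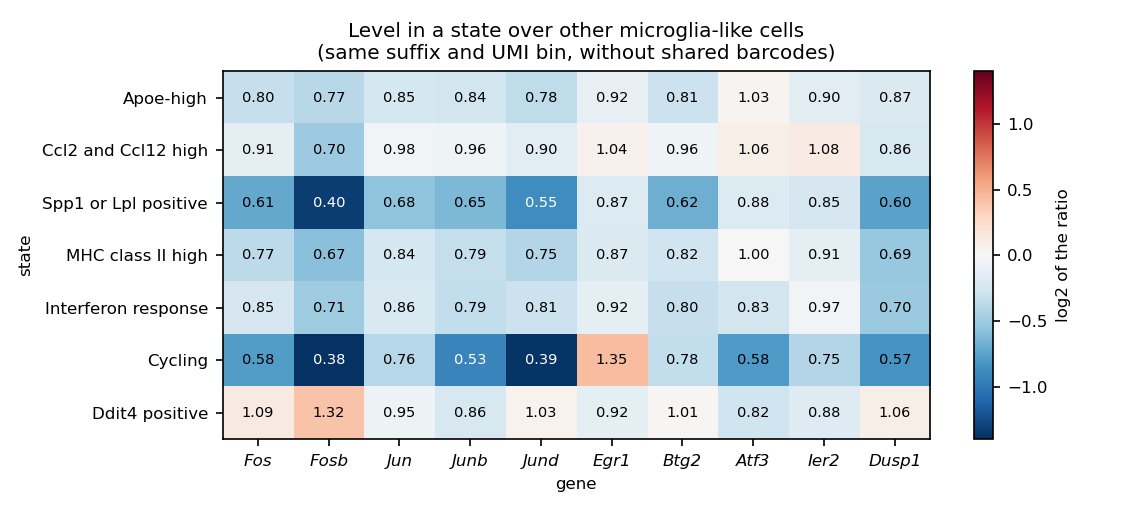
Ratio of the level of each gene (horizontal axis) in 7 microglial states (vertical axis) to that in other microglia-like cells of the same suffix and UMI bin, without shared barcodes; color is the log2 of the ratio and the numbers are the ratios. The Spp1 or Lpl positive and cycling rows hold the lowest ratios, with Fosb at 0.40 and 0.38, and Egr1 in cycling cells is the highest at 1.35.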

How the data were processed

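Per the labels and the study's methods, the authors aligned reads with Cell Ranger 3.1 (mm10), merged the 6 libraries and deposited 1 joint table of raw UMI counts, not normalized, in which the labels tie no suffix to a mouse. They analysed it in Seurat 3.1.5. Libraries were sequenced in 3 batches, members not named. Here kept barcodes had more than 200 detected genes, no more than 2500, and mitochondrial UMIs under 5%. The upper limit is the only treatment of doublets: no caller was run. Cells were gated by UMIs of marker genes (microglia-like: at least 3 UMIs from 2 of 6 markers, no other gate met). Levels are a gene's share of all UMIs in a set of cells, per 1000000 (CPM), with exact Poisson 95% intervals and exact Clopper-Pearson intervals for shares, computed with pandas 2.3.3, scipy 1.17.1 and numpy 2.4.6 under Python 3.11.15. They cover counting error only. Background genes have at least 50 CPM in microglia-like cells (2694, or 2664 in unshared cells). The scripts were tested on simulated data. Named genes are the 10 members, the 10 genes outside them with the highest ratio between cells high and low for them, the 10 whose log2(CPM + 10) is most correlated with theirs over suffix and UMI bin sums of at least 50 cells, and fixed-list genes of high level or ratio. Members and lists were chosen with earlier results of these data known. Alternatives were the barcode filters, a stricter gate, thinning, equal weight per suffix, leaving out each suffix, doubled state gates and, chosen after seeing the data, leaving out shared barcodes. The number of per-sample columns left unused was 0. Annotation was GENCODE M21, and promoter windows came from RefSeq (8 of 10 members matched). The result of 1 fixed list and 1 gene that the rule names are not reported here.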

Additional observations from a re-analysis of the deposited data

How the results depend on the processing

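The share of UMIs on the 10 members, 5.40%, was 5.34% with no filter on barcodes and 5.37% with no upper limit on genes. It was 5.44% with a stricter microglial gate, 5.37% as the mean of the 6 suffixes and 5.26% when thinned to 500 UMIs. It was 5.64% without shared barcodes and 5.26% to 5.51% when each suffix was left out in turn. Leaving out a suffix can leave copies of a shared cell under other suffixes. Without shared barcodes the members higher in the shallowest bin went from 2 to 1 and those lower from 2 to 0. In the bin of 1000 to under 2000 UMIs, the members higher in shared barcodes went from 1 to 0 and those lower from 4 to 6. The members lower in border macrophage-like cells went from 4 to 2 when weighted to the same suffixes and bins. With doubled state gates the members lower went from 0 to 2 in Apoe-high, from 0 to 1 in Ccl2 and Ccl12 high and from 1 to 2 in MHC class II high cells. For the doubled gates, the weighting and the bin of 1000 to under 2000 UMIs no share of all genes is given. These counts therefore cannot be set against other genes. Members higher in cells high for the other 9 numbered 5 to 8 when a suffix was left out, 8 without suffix 3. The cause was not tested in any of these. No called direction turned in the alternatives run. No paired analysis was possible because the suffixes carry no replicate numbers and no result comes from a test. The shallow depth limits Fosb most, seen in 18.2% of cells at 500 UMIs.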

Other observations

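The suffixes, which the sample labels put in no group, fell into separate sets for some members. With all barcodes and in unshared cells alike, suffixes 1 to 3 lay above suffixes 4 to 6 without overlap for 7 of 10 members. They did so for 7.87% of all genes with all barcodes and 9.46% in unshared cells. They lay below for 20.1% and 21.4% of genes and no member. In shared barcodes they lay above for 3 of 10 members and 3.61% of genes, and below for no member and 6.62% of genes. This cut of the suffixes was not among the planned comparisons, so the counts only describe the levels. Setting them beside the share of all genes is no test. Whether the cut follows the groups, their time after implantation or the sequencing batches was not tested. In unshared microglia-like cells Fos was 12260, 12468 and 12157 CPM in suffixes 1 to 3 and 8792, 8731 and 9820 CPM in suffixes 4 to 6. Btg2 was 8748, 8331 and 8092 CPM against 6357, 6497 and 7166 CPM, and Dusp1 4194, 3799 and 4427 CPM against 2524, 3229 and 2879 CPM. Fosb was 381, 433 and 521 CPM against 302, 304 and 320 CPM. Jun was 13699, 15509 and 12967 CPM against 12946, 12786 and 12447 CPM, Junb 10152, 10709 and 9559 CPM against 8341, 9519 and 9391 CPM, and Atf3 3259, 2585 and 3004 CPM against 2399, 2342 and 2069 CPM. For Jun in suffixes 3 and 4, and for Junb in suffixes 3 and 5, the gap was within counting error. Their intervals were 12888-13046 and 12882-13010 CPM for Jun, and 9491-9627 and 9456-9583 CPM for Junb. Egr1 did not split this way, at 2338, 2657 and 2452 CPM against 2647, 2287 and 2335 CPM. Ier2 was higher in suffixes 5 and 6 (3814 and 3630 CPM) than in suffixes 1 to 4 (2636, 2843, 3029 and 2787 CPM).

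Genes at the other end of the comparison of cells high and low for the members, chosen after their values were seen, had far lower levels in cells rich in the members. In unshared cells the ratio was 0.04 for Spp1, 0.13 for Ifi27l2a, an interferon-induced gene, 0.16 for Cd72, 0.18 for Ifitm3, 0.19 for the chemokine genes Cxcl10 and Ccl7, 0.20 for Cd74, the invariant chain of MHC class II, and 0.28 for Apoe. With all barcodes it was 0.014 for Spp1 and 0.15 for Apoe.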
